A study of Zea mays with 8 samples.

Results

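The loci described here were expressed in the dividing base of the maize leaf and were close to silent in the elongating tissue above it. They were chosen by level alone: at least 5 FPKM in all 4 division zone libraries and under 0.5 FPKM in all 4 elongation zone libraries. FPKM is a level scaled for transcript length and library size. The rule kept 10 of the 43110 loci in the table, and every zone difference below therefore describes how the loci were chosen and is no test. The libraries came from leaf 6 of B73, a maize inbred, in hydroponics with 4 mM nitrogen (high nitrogen, HN) or 0.04 mM nitrogen (low nitrogen, LN). Each of the 4 groups, HN division, LN division, HN elongation and LN elongation, had 2 libraries, called biological replicates in the study's design without saying how plants were pooled or where the zones were cut. The rule did not compare the nitrogen supplies, and this comparison was tested in the division zone. It is not free of the selection, because the same division values had to reach 5 FPKM. Loci low in either nitrogen group were therefore left out.

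A grass leaf grows from its base, where cells divide in a short zone and are displaced upward into a zone in which they lengthen without dividing. Dividing cells copy their DNA and need fresh histones to package it, so histone and cell cycle transcripts are known to fade as cells leave the division zone. The base is also where growth-regulating factors and YABBY factors, known for setting organ size and the upper and lower faces of a leaf, act in young tissue.

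The library sums ran from 652957 to 1113550 FPKM, and 21136 to 22119 loci per library reached 1 FPKM. The markers followed the zone labels. Mean levels were lower in the elongation zone for 31 of 31 core histone, 12 of 13 DNA replication and 17 of 23 cyclin and mitosis loci, and higher for 23 of 27 aquaporin and 10 of 16 expansin loci, genes of water uptake and wall loosening. Of the shoot apical meristem markers that a cut at the leaf base could include, kn1, gnarley1, lg4b, wus1 and wus2 were listed at 0 in all 4 division libraries. Others were detected there: wox4 was between 1.29 and 2.31 FPKM in the division libraries and at 0 in the elongation libraries, ns1 was between 0.717 and 1.21 FPKM in the division libraries, and lg3, lg4a and knox8 were above 0 in some division libraries, at 0.141 FPKM or less. In bulk tissue, fewer cells of a type and less RNA per cell cannot be told apart.

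The 10 loci were rare even among strongly expressed ones. Of 13001 loci at 5 FPKM or more in every division library, they made up 0.0769%. The exchanged rule, at least 5 FPKM in all 4 elongation and under 0.5 FPKM in all 4 division libraries, kept 38 of 12300 loci, or 0.309%. Of 25 lists of named genes with 516 loci in all, covering transcription factor families, hormones, the cell cycle, the wall and photosynthesis, 24 held 0 of the 10 loci and the core histone list held 1. This count was fixed by the naming. The lists go by gene symbol and only 1 of the 10 loci has an informative name, so the others could not appear in any list. It does not show which families the unnamed loci belong to. Listed cell cycle genes that met the division minimum stayed above the limit in elongating tissue: the lowest elongation maximum among loci at 5 FPKM or more in every division library was 1.18 FPKM for the cyclin and mitosis list and 3.57 FPKM for the DNA replication list.

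**Figure D1:**
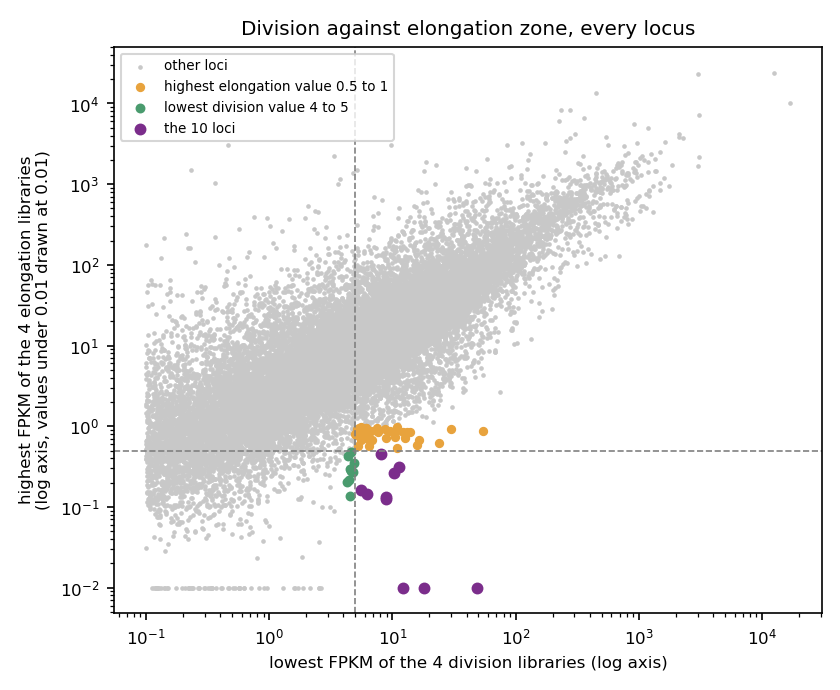
Each point is a locus with over 0.1 FPKM in every division library, placed by its lowest division value (x axis, FPKM, log scale) and its highest elongation value (y axis, FPKM, log scale, values under 0.01 drawn at 0.01); dashed lines mark 5 and 0.5 FPKM. The 10 loci lie in the lower right corner, 3 of them at 0 in the elongation zone, and 38 loci lie between 0.5 and 1 FPKM just above them.

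Of the 10 loci, 8 carry a gene identifier and 2 are assembled loci without one. RefSeq, searched by identifier alone in its table for the assembly Zm-B73-REFERENCE-NAM-5.0, matched 5 of them, all as protein-coding genes, and gave an informative name to 1, the histone H4 gene H4C7. The others have no named function in the sources used here, so they are given by identifier. Among the 13001 loci at 5 FPKM or more in every division library, 10.9% had an informative name and 5.76% had no gene identifier. Positions below are on B73 RefGen_v3, the build named in the submitters' processing notes, and cover the assembled locus from end to end. Which parts are exons was not analysed here.

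Chromosome 5 held 4 of the 10 loci, against 12.4% of the 13001 loci, chromosome 7 held 2, and chromosomes 1, 6, 8 and 10 held 1 each. No 2 of them were neighbours, since 0 of the 10 nearest loci belonged to the set. The nearest locus without overlap lay between 459 and 64880 bases away. Expression of the nearest locus did not follow the zone pattern as a rule: its mean was higher in the division zone in 4 cases and in the elongation zone in 5, and in 1 case it was listed at 0 in all 8 libraries. Next to XLOC_009457, at a distance of 4342 bases, the unannotated Novel_798 had the opposite pattern, at 0 in all 4 division libraries, while the HN elongation libraries had 3.14 and 1.19 FPKM and the LN elongation libraries 7.06 and 12.4 FPKM.

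The highest mean division levels were in the 3 loci that were at 0 throughout the elongation zone, and these 3 also had the largest standard errors in the nitrogen comparison. Histone H4 is a core protein of the nucleosome, around which DNA is wound. The histone locus XLOC_035000, named H4C7 in the table (chromosome 7, 119982868 to 119992231), was 55.4 and 17.9 FPKM in HN division libraries and 21.6 and 32.3 FPKM in LN division libraries. It was listed at 2.42e-29 FPKM in HN elongation replicate 1, which is 0 for any practical purpose, and at 0 in the other 3 elongation libraries. The 2 division groups overlapped, because HN replicate 1 was 3.09 times HN replicate 2.

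This histone locus shares its whole span with a second locus of the same name, XLOC_033390, and is the only one of the 10 that overlaps another locus. The second locus was far more abundant, at 2311 and 1490 FPKM in HN division and 1821 and 2722 FPKM in LN division libraries. It stayed expressed in the elongation zone, at 579 and 1046 FPKM under high and 200 and 192 FPKM under low nitrogen. The level of XLOC_035000 was 2.40% of that of XLOC_033390 in HN division replicate 1 and 1.20%, 1.19% and 1.19% in HN division replicate 2 and LN division replicates 1 and 2. How the reads of that span were divided between the 2 loci is not given, neither is the strand, so the level of XLOC_035000 is uncertain.

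Histone H4 transcripts as such were not restricted to the division zone. The table has 15 loci named H4C7, and the other 14 lay between 328 and 2722 FPKM in the division libraries and between 20.1 and 1046 FPKM in the elongation libraries. Near-identical copies can share reads, so these loci are not independent. Like XLOC_035000, 13 of the 14 were higher in HN division replicate 1 than in replicate 2, and 14 of 14 were higher in LN division replicate 2 than in replicate 1.

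**Figure D2:**
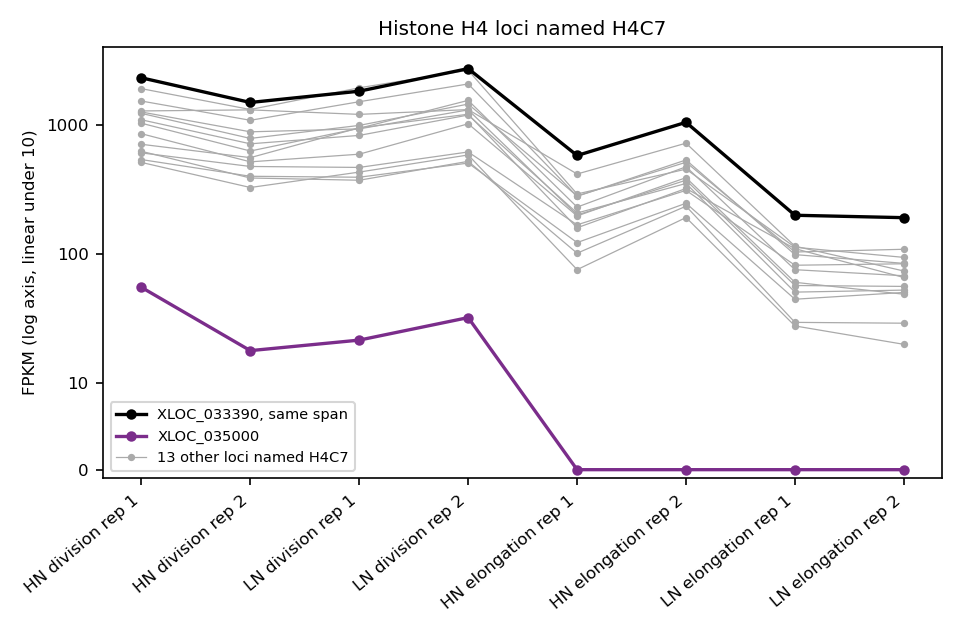
FPKM (y axis, log scale, linear under 10) of the 15 loci named H4C7 in each of the 8 libraries (x axis); lines join the values of a locus. XLOC_035000 falls from 17.9 FPKM or more in the division libraries to 0 in the elongation libraries, whereas the locus with the same span and the 13 others stay at 20.1 FPKM or more.

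The other 2 loci at 0 in the whole elongation zone are short and have no gene identifier. XLOC_009457, or Novel_797 (chromosome 10, 58992026 to 58992238), spans 213 bases and was 48.9 and 72.97 FPKM in HN division and 59.1 and 128 FPKM in LN division libraries. XLOC_028848, or Novel_2693 (chromosome 5, 133880201 to 133880429), spans 229 bases and was 40.3 and 12.1 FPKM in HN division and 31.0 and 19.4 FPKM in LN division libraries. In both, the nitrogen groups overlapped.

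For loci this short, 0 says less than for longer ones. Among the 565 loci within 0.8 to 1.25 times the span of XLOC_009457, no elongation library listed any value above 0 that was under 0.5 FPKM, and the lowest such value was 2.87 FPKM. Among the 719 loci of a span like that of XLOC_028848 the lowest was 1.70 FPKM. A short locus could therefore meet the limit of 0.5 FPKM only by being listed at 0. For the other 8 loci, 8.82 to 35.1% of values above 0 at loci of like span were under 0.5 FPKM, so low levels could be listed at such spans. For XLOC_035000 this does not show that a low level could be seen. It shares its span with XLOC_033390, and how their reads were divided is not given. Only 0.777% of the 13001 loci span 300 bases or less, as do 2 of these 10.

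The remaining 7 loci have gene identifiers and lay at lower levels, between 5.55 and 38.6 FPKM in the division zone. XLOC_032644, with the identifier GRMZM2G008234 (chromosome 7, 3185203 to 3189912), was 7.11 and 6.18 FPKM in HN division libraries and 27.5 and 37.0 FPKM in LN division libraries. It was 0.0957 and 0.0564 FPKM in the HN elongation and 0.145 and 0.0795 FPKM in the LN elongation libraries. Over both nitrogen supplies together, its division mean was 207 times its elongation mean. The ratio is uncertain, since its divisor is low. In the elongation libraries, the lowest 5% of values above 0 at loci of like span ended between 0.122 and 0.151 FPKM. Both LN division libraries of XLOC_032644 lay far above both HN division libraries.

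XLOC_029893, with the identifier GRMZM2G455642 (chromosome 6, 118266826 to 118270797), showed the same order. It was 11.2 and 8.95 FPKM in HN division and 30.5 and 38.6 FPKM in LN division libraries. In the elongation zone it was steady, at 0.125 and 0.118 FPKM under high and 0.132 and 0.103 FPKM under low nitrogen. The ratio of the zone means, over both nitrogen supplies together, was 187. This ratio is uncertain too, as the same lowest 5% ended between 0.102 and 0.124 FPKM at loci of its span.

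XLOC_025801, with the identifier GRMZM2G512113 (chromosome 5, 183567072 to 183567836), had the smallest standard error of the 10 in the nitrogen comparison. It was 12.3 and 11.3 FPKM in HN division libraries and 23.3 and 24.2 FPKM in LN division libraries. It was listed at 0 in replicate 1 of both elongation groups, and replicate 2 had 0.144 FPKM under high and 0.310 FPKM under low nitrogen.

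XLOC_024501, with the identifier GRMZM2G061292 (chromosome 5, 18177711 to 18179160), was 11.1 and 8.87 FPKM in HN division and 15.4 and 18.6 FPKM in LN division libraries. Its only elongation value above 0 was 0.127 FPKM, in LN replicate 2. XLOC_024394, with the identifier GRMZM2G327260 (chromosome 5, 12563245 to 12564122), was 9.81 and 8.12 FPKM in HN division and 13.4 and 24.1 FPKM in LN division libraries. Of the 10 loci it came closest to the elongation limit, with 0.453 and 0.417 FPKM under low nitrogen against 0.0996 and 0 FPKM under high nitrogen.

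XLOC_039525, with the identifier GRMZM2G036120 (chromosome 8, 168490630 to 168492388), was 10.99 and 10.3 FPKM in HN division and 12.4 and 18.3 FPKM in LN division libraries. In the elongation zone it had 0.0493 and 0.0581 FPKM under high and 0.262 and 0.163 FPKM under low nitrogen. In these last 3 loci, too, both LN division libraries lay above both HN division libraries. XLOC_039525 and XLOC_024394 were the 2 of the 10 loci whose LN elongation values both exceeded both HN elongation values, a difference that was not tested.

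XLOC_002224, with the identifier GRMZM2G081515 (chromosome 1, 231450468 to 231452066), was the weakest. It was 7.82 and 5.88 FPKM in HN division and 5.55 and 6.64 FPKM in LN division libraries, and between 0.0709 and 0.161 FPKM in the elongation libraries. Its division groups overlapped, and its lowest division value, 5.55 FPKM, was the closest of the 10 to the minimum of 5 FPKM.

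**Figure D3:**
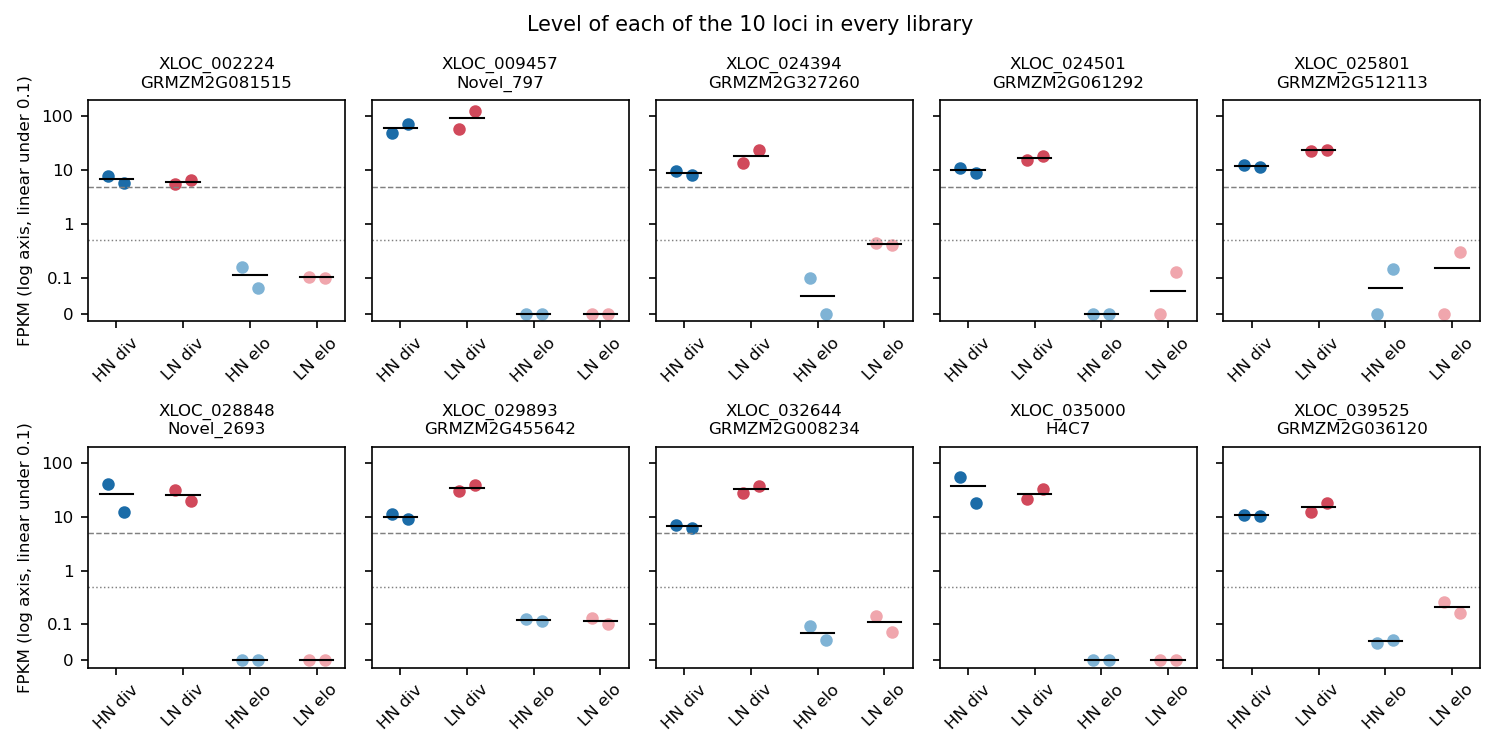
FPKM (y axis, log scale, linear under 0.1) of each of the 10 loci in the 2 libraries of each group (x axis; div, division zone; elo, elongation zone), with bars at the group means; dashed and dotted lines mark 5 and 0.5 FPKM. In 6 panels both LN division points lie above both HN division points.

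Low against high nitrogen in the division zone raised 3 of the 10 loci, lowered 0 and left 7 uncalled. All 10 were among the 22540 loci tested, the loci averaging 1 FPKM or more in either division group, by limma on log2(FPKM + 1) with Benjamini-Hochberg adjustment and a threshold of 0.05. Over all loci tested, 2.85% were called higher and 5.92% lower, 8.77% in all. Among the 13001 loci at 5 FPKM or more in every division library, 2.42% were called higher and 7.4% lower. Both LN libraries lay above both HN libraries in 6 of the 10 loci, against 28.3% of all loci tested and 24.2% of the 13001. The reverse order held in 0 of the 10, against 32.2% of all loci tested. The median change of the 10 was 0.62 on the log2 scale, against -0.01 over all loci tested and -0.07 over the 13001.

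XLOC_032644 had the largest change. Its mean went from 6.65 ± 0.662 to 32.3 ± 6.71 FPKM (SD, n = 2 libraries each), a ratio of 4.85, and its log2 change was 2.11 ± 0.18 (SE, limma adjusted p = 0.0165). XLOC_029893 went from 10.1 ± 1.59 to 34.5 ± 5.74 FPKM, with a log2 change of 1.68 ± 0.18 and a limma adjusted p of 0.0223. XLOC_025801 went from 11.8 ± 0.715 to 23.7 ± 0.660 FPKM, with a log2 change of 0.95 ± 0.12 and a limma adjusted p of 0.0256. In each of the 3, both LN libraries lay above both HN libraries.

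The other 3 loci without overlap did not pass the test. Their log2 changes were 0.71 ± 0.17 for XLOC_024501 (limma adjusted p = 0.0659), 0.94 ± 0.29 for XLOC_024394 (0.105) and 0.47 ± 0.21 for XLOC_039525 (0.203). XLOC_009457 and XLOC_028848, at 0.53 ± 0.41 and 0.13 ± 0.57, had standard errors close to or above their changes. XLOC_002224 and the histone locus XLOC_035000 were at -0.14 ± 0.18 and -0.25 ± 0.54. The locus with the span of XLOC_035000 and the 13 other H4C7 loci had 0 calls and a median change of 0.24.

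Before adjustment, 5 of the 10 loci had a limma p under 0.05, as did 6924 of the 22540 loci tested. Most of the 10 loci shared an order of replicates: HN division replicate 1 was above replicate 2 in 9, and LN division replicate 2 was above replicate 1 in 9. The library sums had the same order, with 852561 and 751883 FPKM in HN division and 652957 and 746006 FPKM in LN division replicates 1 and 2. The share of all loci with this order was not counted. With 2 libraries a group, the calls rest on every library. Leaving out HN division replicate 1, HN division replicate 2, LN division replicate 1 or LN division replicate 2 ended all 3 calls, at limma adjusted p between 0.0652 and 0.177, while their log2 changes stayed between 0.89 and 2.32. With a block for the replicate number, XLOC_025801 had an adjusted p of 0.0504. Scaling the libraries to equal totals moved the median of all loci to 0.17, made 62.5% of all calls higher in place of 32.5%, and called 5 of the 10 loci, all higher.

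**Figure D4:**
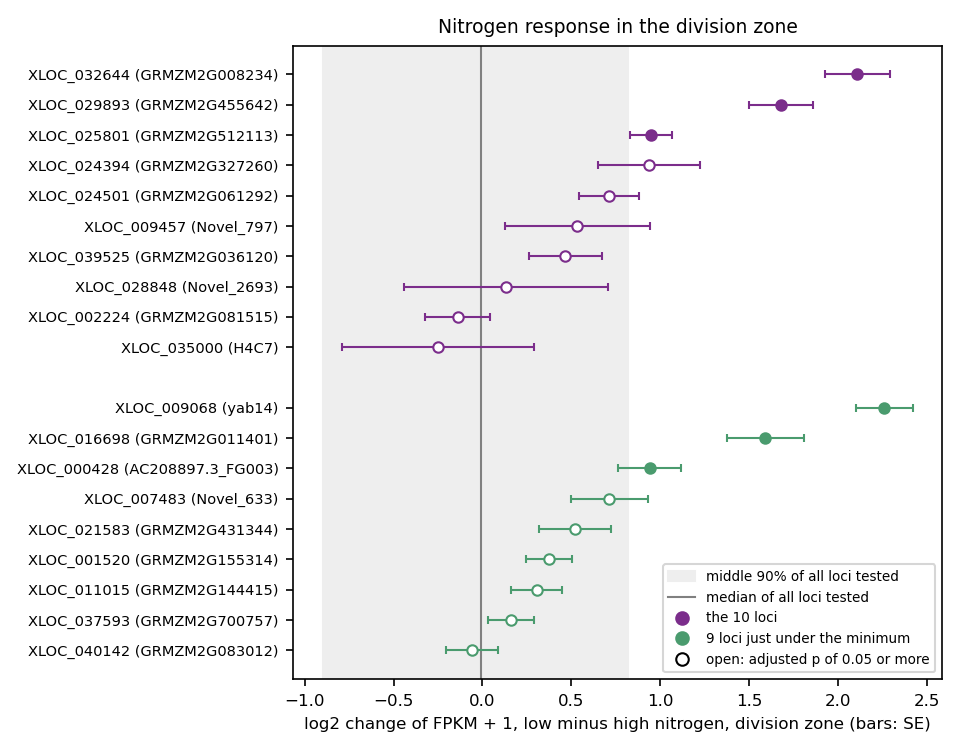
Log2 change of FPKM + 1, low minus high nitrogen in the division zone (x axis), with standard errors as bars, for the 10 loci (purple) and the 9 loci with a lowest division value between 4 and 5 FPKM (green); filled points passed the test. The grey band, from -0.90 to 0.82, leaves out the lowest and the highest 5% of all loci tested. In each set 3 loci passed, all of them higher under low nitrogen, against 2.85% of all loci tested called higher and 5.92% lower.

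Loci that the rule narrowly missed included 2 of known family. In all, 9 loci under 0.5 FPKM in every elongation library had a lowest division value between 4 and 5 FPKM. One was yab14 (XLOC_009068), a YABBY factor, at 4.52 and 5.98 FPKM in HN division and 27.9 and 29.6 FPKM in LN division libraries. It was listed at 0 in both HN elongation libraries, and LN elongation replicates 1 and 2 had 0.0866 and 0.136 FPKM, so a single HN division value kept it out. Its log2 change in the division zone was 2.26 ± 0.16 (limma adjusted p = 0.0124). The other was ankyrin-1, an ankyrin repeat gene by its name, which went from 4.68 ± 0.131 to 6.37 ± 0.266 FPKM, with a limma adjusted p of 0.132. Of the 9 loci, 3 rose and 0 fell, against 2.85% and 5.92% of all loci tested. This count was not followed over the alternative settings.

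A further 38 loci met the division minimum with an elongation maximum between 0.5 and 1 FPKM, the nearest at 0.544 FPKM. Of these, 4 rose under low nitrogen in the division zone and 0 fell, against 2.85% and 5.92% of all loci tested, and their median change was 0.34. That count ranged from 0 to 15 over the alternative settings, and was 0 without any 1 of the 4 division libraries. The most abundant was XLOC_010568 (GRMZM2G112210), singled out after its values were seen, at 54.5 and 59.7 FPKM in the HN and 272 and 298 FPKM in LN division libraries (limma adjusted p = 0.00968). The 2 with names were the transcription factors EREB208, of the ethylene response family, and GRF9 (XLOC_028576), a growth-regulating factor. EREB208 was 6.92 and 6.13 FPKM in HN division and 7.997 and 13.4 FPKM in LN division libraries, with a limma adjusted p of 0.185. GRF9 was 9.15 and 6.31 FPKM in HN division and 5.37 and 6.59 FPKM in LN division libraries, with a limma adjusted p of 0.372. A second locus named GRF9, XLOC_020541, went the other way. It was 11.8 and 7.23 FPKM in HN division and 21.4 and 34.2 FPKM in LN division libraries (limma adjusted p = 0.0535). Its elongation maximum was 2.03 FPKM, so it lay outside the 38.

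Some families that mark young leaf tissue had a locus just outside the rule. Of the 7 YABBY loci, 1 was among the 9 just under the division minimum, against 9 of all 43110 loci. Of the 15 growth-regulating factor and GIF loci at 5 FPKM or more in every division library, 1 was among the 38, against 38 of all 13001 such loci. The WOX list had 0 in either set. Of 7 YABBY loci, 3 were under 0.5 FPKM in all elongation libraries, against 16810 of all 43110 loci. Of these 3, yab9 was at 0 in all 8 libraries and yab14 came within reach of the division minimum. Of 6 YABBY loci tested, 3 rose under low nitrogen and 0 fell, against 2.85% and 5.92% of all loci tested. The family as a whole did not follow the zone pattern: 3 loci had a lower and 3 a higher mean in the elongation zone, among them YAB3 at 16.3 FPKM over the 4 division and 31.9 FPKM over the 4 elongation libraries. Another YABBY locus under the elongation limit, yab10, was 4.03 and 3.40 FPKM in HN division and 11.004 and 12.04 FPKM in LN division libraries and at most 0.415 FPKM in the elongation zone. Growth-regulating factors and their GIF partners had 15 of 20 loci at 5 FPKM or more in every division library. The rule was met by 0 of the 20, beside only 0.0769% of all 13001 loci at that division level, so 0 says little about the family. Under 0.5 FPKM in all elongation libraries were 2 of the 20, against 16810 of all 43110 loci. Under low nitrogen 9 rose and 0 fell, beside the same shares of all loci tested. Of 13 WOX homeobox loci, which include stem cell and leaf margin regulators, 12 were under 0.5 FPKM in the elongation zone, against 16810 of all 43110 loci. However, 0 of the 13 reached 5 FPKM in every division library, and 6 were at 0 in all of them.

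Summed levels of several marker lists also differed between the division groups. The YABBY loci summed to 42.2 and 39.7 FPKM under high and 77.6 and 78.9 FPKM under low nitrogen, and the growth-regulating factor list to 256 and 214 against 395 and 507 FPKM. The 23 cyclin and mitosis loci summed to 671 and 645 FPKM under high and 701 and 713 FPKM under low nitrogen, and the 13 DNA replication loci to 929 and 831 against 1008 and 1174 FPKM. The 12 KNOX loci of meristem identity, 5 of them at 0 in every division library, summed to 37.1 and 30.6 against 34.9 and 39.2 FPKM, and the 13 WOX loci, 6 of them at 0, to 4.98 and 4.35 against 5.42 and 6.71 FPKM. The 31 core histone loci summed to 29240 and 21149 against 26066 and 36080 FPKM, and in this list, as in the KNOX list, the nitrogen groups overlapped. Photosynthesis genes, which mark maturing leaf tissue, went the other way. The 45 loci summed to 2001 and 1824 FPKM under high and 915 and 1221 FPKM under low nitrogen. Of 30 tested, 1 rose and 12 fell, against 2.85% and 5.92% of all loci tested. The part of these differences in the nitrogen changes of the 10 loci, 3 of them called, was not tested.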

How the data were processed

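The authors deposited 1 table of 8 libraries in FPKM, a unit judged from the values, since neither header nor labels give it. Per the submitters' processing notes, TopHat2, edgeR and the build B73 RefGen_v3 were used; which step each served and in which version is not given in the sources used here. Low values shared no common step (at most 13.0% of 562 loci in 1 bin of 0.02 log2 units), so depth is unknown and no counting interval is given. Its 44070 lines gave 43110 loci, and starts were moved by 1 to count from 1.

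Nitrogen was tested with limma 3.58.1 in R 4.3.3 (trend, empirical Bayes, log2(FPKM + 1), 2 residual degrees of freedom), which was tested on simulated data. The log2 fold understates change at low levels. The fit held the 4 division libraries alone, because the loci are near 0 by selection in the others, which would shrink a pooled spread. Replicates are called biological, but nothing says that they came from separate cultures, so p-values measure only the spread between these libraries, which may be partly technical. The rule, the lists (by symbol) and the tests were chosen with earlier results of these data known. Symbols of unrelated families that a list's pattern also caught were taken out after the table was read. The naming rule covered loci with an informative name, loci just outside the thresholds and zone markers, and at most 2 rising and 2 falling loci without a name; all 10 are given by identifier because they are the subject, which was decided after their values were seen. No sequence was used here.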

Additional observations from a re-analysis of the deposited data

How the results depend on the processing

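The number of loci that met the rule was 48 with an elongation limit of 1 FPKM, 3 with a limit of 0.1 FPKM, 61 with a division minimum of 2 FPKM and 5 with a minimum of 10 FPKM. It was 11 after scaling to equal totals, 9 of them among the 10, and ran from 10 to 19 when each library was left out in turn; leaving one out only drops a condition, so no locus could be lost. The highest counts came without LN elongation replicate 1 (19) and without HN division replicate 2 (18).

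Of the 10 loci, 5 were called after scaling to equal totals, 0 with a minimum log2 change of 1, and 0 with any of the 4 division libraries left out, which leaves 1 residual degree of freedom and assumes that the lone library varies like the other group. Over all loci the calls were 544 with no filter on low values (31729 loci tested), 3396 after scaling to equal totals, 31 with the minimum change, and 19 to 86 without 1 library. For the 38 loci just above the elongation limit, a set added after the data were seen, the calls were 2 with no filter, 9 with a filter at 5 FPKM, 15 after scaling to equal totals, 8 after scaling by the median ratio, 0 with the minimum change and 0 without any 1 library. Why scaling moved these counts was not tested.

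With a replicate block, 951 loci were called in all, 2 of the 10 and 3 of the 38. Same-numbered libraries did not deviate together (r = -0.19 over 22540 loci, which are not independent). The values were not rescaled to equal totals, so this cannot show whether the numbers pair the libraries.

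Among the 4 loci that reversed, none was called: XLOC_002224 was at 0.032 after scaling to equal totals and ran from -0.32 to 0.040 without 1 library, XLOC_009457 from -0.017 to 1.08, XLOC_028848 from -0.69 to 0.96 and XLOC_035000 from -1.04 to 0.54. Unknown depth limits what a value under 0.5 FPKM can show, most of all at the 2 short loci.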
